A study of Mus musculus with 48 samples.

Results

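Livers of mice given the antisense oligonucleotide LX-A3928 were compared with livers of mice given LX-A2003, each sampled 24 h after the first administration. The comparison used 8 of the 48 libraries of the study, 4 for each compound, chosen by the group names in the labels. All 12672 genes that passed the filter on low counts, of 23930 in the table, were tested. Both compounds are gapmers directed against Scarb1, and 4 libraries from livers given PBS, the vehicle, at the same time gave the background level. The same groups at 72 h and 168 h, also with 4 libraries each, were used for the course of the differences. What the labels share across all groups is the species, the tissue and the kit. Doses, oligonucleotide sequences and chemistry, strain, sex, age, number of administrations and the hour of day at which tissue was taken are not given in the sources, so the compounds were compared as dosed. Nothing in the labels says whether the 4 replicates were 4 animals, and the spread that the p-values are set against may therefore be technical.

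A gapmer is a short strand with a DNA core between chemically modified ends. It pairs with its target transcript, and the paired RNA is cut by RNase H. Scarb1 encodes the scavenger receptor SR-BI, through which hepatocytes take up cholesteryl esters from high-density lipoprotein. Liver transcripts also follow the circadian clock, in which Arntl (BMAL1) pairs with Clock or its paralog Npas2 to activate the Per and Cry genes and the output factors Dbp and Tef through E-boxes, and the Per and Cry proteins in turn repress that pair. Feeding adds a second layer of control, to which bile acids, insulin and the genes they regulate belong.

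The libraries held between 10933157 and 13259550 read counts with LX-A3928 and between 10274766 and 11828165 with LX-A2003. Between 14993 and 15903 genes were detected with LX-A3928 and between 14641 and 14972 with LX-A2003, ranges that did not overlap, and the part of this in the results was not tested. Between pairs of replicates the chi-square per degree of freedom was 8.65 to 18.28 for LX-A3928 and 5.747 to 23.25 for LX-A2003. No 2 replicates within either group were therefore 1 set of counts deposited again, and pairs across groups were not compared. Amplified reads exceed counting noise even from the same RNA, and these values do not show that the replicates were separate animals. The tissue label was checked against its markers. The 13 hepatocyte markers tested summed to 94340 to 98800 CPM (read counts scaled to library size) with LX-A3928 and to 99000 to 107500 CPM with LX-A2003. These sums did not overlap each other, but PBS livers, at 96080 to 107600 CPM, overlapped both. The list's median log2 fold change of LX-A3928 against LX-A2003 was -0.0334. Of the 18 listed hepatocyte markers 13 were measured, and none of these was at 0 with either compound. In bulk tissue, fewer cells of a type and less RNA per cell cannot be told apart.

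At 24 h, 19 genes differed between the compounds at an adjusted p under 0.05, which is 0.15% of the genes tested. With LX-A3928, 8 genes were higher (0.0631%) and 11 were lower (0.0868%) than with LX-A2003. The higher genes were Scarb1 itself, the clock genes Per3, Usp2 and Tef, the growth regulators Myc and Plk3, and Coq10b and Sox5. The lower genes were the clock activators Arntl and Npas2, the metabolic regulators Nr0b2, Angptl8, Igfbp1 and Chka, the signalling genes Epha2, Efna1 and Hes1, and Rnf125 and Zfp750. Of the 19 genes, 17 differed by a log2 fold change of at least 1 in size, against 352 of all genes tested (2.78%) when the test was left aside. The median log2 fold change over all genes was -0.00342, with quartiles of -0.142 and 0.132. Leaving out each of the 8 libraries in turn gave between 6 and 24 calls, the fewest without LX-A2003 replicate 1, and Epha2, Arntl, Angptl8, Npas2 and Nr0b2 were called in all 8 of these fits. All fold changes below are log2 values of LX-A3928 against LX-A2003 ± SE with 4 libraries a group, and levels are CPM.

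**Figure D1:**
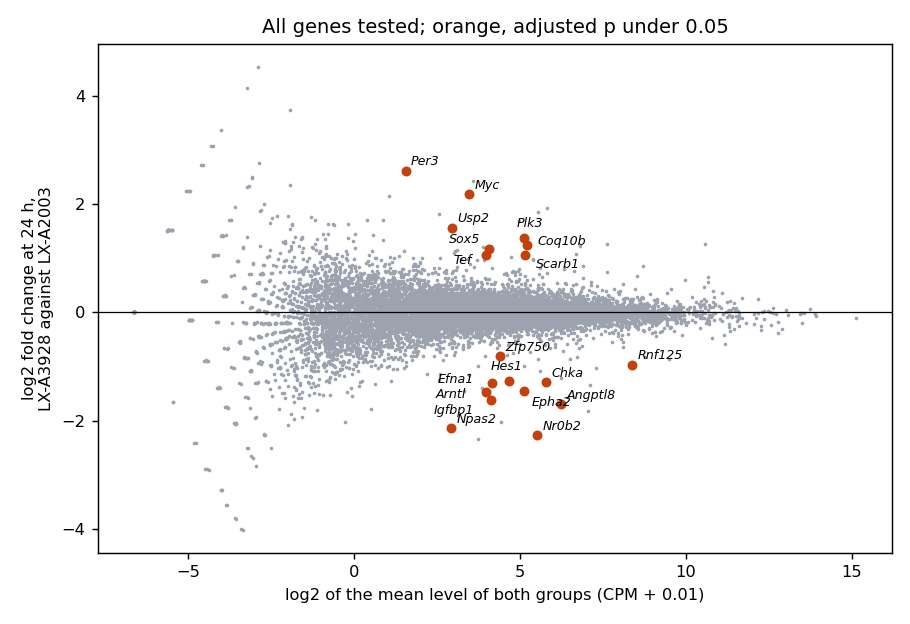
Log2 fold change of LX-A3928 against LX-A2003 at 24 h (vertical axis) against the log2 mean level of both groups (horizontal axis, CPM + 0.01), 1 point for each of the 12672 genes tested. The 19 genes with an adjusted p under 0.05 are orange and named, and the largest fold changes in grey belong to genes of very low level.

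Scarb1, the target, checked the labels first. Its amplicon gave 38.6, 56.2, 56.8 and 40.6 CPM in the 4 LX-A3928 libraries, 29.0, 29.9, 19.6 and 13.6 CPM in the 4 LX-A2003 libraries, and 281.0, 236.1, 290.6 and 278.2 CPM with PBS. Every oligonucleotide library lay far below every PBS library, and the lowest LX-A3928 library lay above the highest LX-A2003 library. Mean Scarb1 was 17.7% of the PBS mean with LX-A3928 and 8.48% with LX-A2003. Between the compounds the log2 fold change was 1.06 ± 0.216 (adjusted p = 0.0145), so 2.08 times as much Scarb1 signal remained with LX-A3928. The call was lost without LX-A3928 replicate 2 or 3 or LX-A2003 replicate 3 or 4 (adjusted p up to 0.121), and also when the 8 libraries were fitted alone (0.146). The positions of the amplicon and of the sites that the compounds pair with were not used here. In the GENCODE annotation of GRCm38, Scarb1 lies at chr5:125277087-125341094 on the minus strand. Among the 16 genes tested for HDL particles and cholesterol efflux, Scarb1 was the 1 gene that differed, and the list's median log2 fold change was 0.00373. The same was true of the 13 listed scavenger receptors (median 0.0354).

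**Figure D2:**
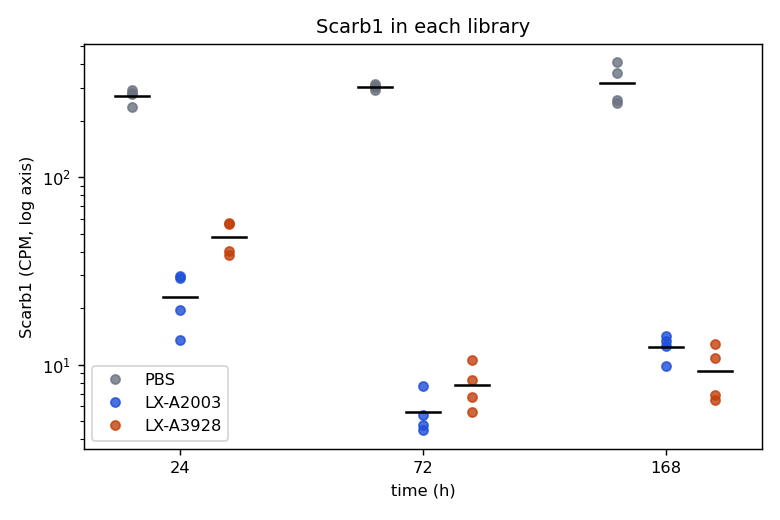
Scarb1 in CPM on a log axis in each library at 24 h, 72 h and 168 h, with 4 points and a bar at the mean for each group. At 24 h the LX-A3928 libraries (38.6 to 56.8 CPM) sit above the LX-A2003 libraries (13.6 to 29.9 CPM), whereas the compounds overlap at 72 h and 168 h.

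Clock genes made up 5 of the 19. Promoter sequences of the clock genes Per3 and Tef, and of Nr0b2 and Coq10b, are shown because they carry letters that clock factors are known to bind. The windows are from RefSeq on GRCm38.p6, from 250 bases before to 50 after a start, and 14 of the 19 genes had an entry (17 windows). Both strands were searched for the E-box CACGTG, known from binding by Arntl with its partners, for the D-box letters TTATGTAA and TTACGTAA, known from binding by Dbp, Tef and Nfil3, and for the ROR element, AGGTCA preceded by AANT. Capitals mark the matches in the stretches below, each written 5′ to 3′ along the gene. The Per3 stretch (chr4:151044786-151044900, minus strand) has the D-box at -205 and -158 from the start. The Tef stretches stand before 2 separate starts (chr15:81802516-81802581 and chr15:81811246-81811311, plus strand) and have the E-box at -127 and -138. The Nr0b2 stretch (chr4:133553151-133553216, plus strand) has the E-box at -195. The Coq10b stretch (chr1:55052578-55052727, plus strand) has a D-box read on the other strand at -162 and an E-box at -78.
Per3: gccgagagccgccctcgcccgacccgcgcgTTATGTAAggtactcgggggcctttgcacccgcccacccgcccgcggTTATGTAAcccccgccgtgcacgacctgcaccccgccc
Tef, first start: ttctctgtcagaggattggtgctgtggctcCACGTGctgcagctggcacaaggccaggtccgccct
Tef, second start: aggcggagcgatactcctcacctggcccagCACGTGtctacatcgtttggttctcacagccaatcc
Nr0b2: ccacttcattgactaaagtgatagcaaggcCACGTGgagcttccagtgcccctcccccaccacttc
Coq10b: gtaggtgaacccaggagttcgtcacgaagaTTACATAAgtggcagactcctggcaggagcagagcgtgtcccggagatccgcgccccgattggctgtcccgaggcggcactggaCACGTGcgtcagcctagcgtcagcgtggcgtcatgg
The E-box was found in 3 of the 14 genes and in 7.15% of all 32851 promoter windows. The D-box TTATGTAA was found in 2 of the 14 genes and in 0.938% of windows, and TTACGTAA in none of them and in 0.119%. The ROR element was found in 1 gene, Arntl, at 28 bases after a start, and in 0.219% of windows. The counts of the 14 are genes with a match in any of their windows, while the percentages are of single windows. The counts and percentages are therefore not like for like, and no enrichment was tested. A match describes these letters and does not show that a factor was bound.

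The activators of the clock were lower with LX-A3928. Arntl (BMAL1) was at 10.0, 10.6, 6.47 and 6.32 CPM with LX-A3928, at 27.5, 16.8, 23.7 and 24.5 CPM with LX-A2003, and at 27.3 to 38.3 CPM with PBS. No LX-A3928 library reached the lowest LX-A2003 library, and the log2 fold change was -1.47 ± 0.213 (adjusted p = 0.000166). Npas2, the paralog of Clock, was at 4.35, 3.42, 2.04 and 1.39 CPM with LX-A3928, 12.2, 8.74, 14.7 and 13.5 CPM with LX-A2003, and 15.4 to 36.9 CPM with PBS. The 3 groups of Npas2 values did not overlap and stood in the order LX-A3928, LX-A2003, PBS from low to high. Its log2 fold change was -2.13 ± 0.339 (adjusted p = 0.000754). Both calls held without any 1 of the 8 libraries. Clock, the usual partner of Arntl, did not pass the test, with a log2 fold change of -0.20.

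Per3, a member of the period family, moved the other way. It was at 4.58, 3.23, 5.70 and 6.56 CPM with LX-A3928 and at 0, 0.915, 1.26 and 1.06 CPM with LX-A2003, and PBS livers held 0.127 to 0.338 CPM. Every LX-A3928 library was above every other library at 24 h in these 3 groups, while the LX-A2003 library at 0 lay below the PBS range. The log2 fold change was 2.61 ± 0.509 (adjusted p = 0.00946). Without LX-A3928 replicate 4 or LX-A2003 replicate 1 the call was lost (adjusted p up to 0.0731).

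Usp2 and Tef, both with well-known daily rhythms in liver, were higher as well. Usp2, a ubiquitin-specific protease, was at 9.96, 8.21, 11.2 and 16.3 CPM with LX-A3928, 3.98, 3.76, 3.43 and 4.34 CPM with LX-A2003, and 3.18 to 6.19 CPM with PBS. Thus LX-A3928 livers stood alone above the other groups, by a log2 fold change of 1.56 ± 0.302 over LX-A2003 (adjusted p = 0.0092). The Usp2 call was lost without LX-A3928 replicate 4 or LX-A2003 replicate 1 or 3 (adjusted p up to 0.0821). Tef, a PAR bZIP transcription factor, was at 16.6, 18.3, 22.5 and 26.8 CPM with LX-A3928, 6.17, 12.1, 10.7 and 11.4 CPM with LX-A2003, and 4.04 to 5.73 CPM with PBS. The 3 groups of Tef values were again separate, here with LX-A3928 highest and PBS lowest. Its log2 fold change was 1.06 ± 0.242, with an adjusted p of 0.0486 that lies just inside the threshold. The Tef call held only without LX-A3928 replicate 1 or LX-A2003 replicate 2, and reached an adjusted p of 0.554 in the other fits that left out 1 library.

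Of the 16 core clock genes tested, 1 was higher and 2 were lower, and 7 (43.8%) had an unadjusted p under 0.05, against 557 of all genes (4.4%). The list's median log2 fold change was 0.149. Of the 16 clock output genes, 2 were higher and none lower, 8 (50%) had an unadjusted p under 0.05, and the median was 0.513. Dbp, the output factor closest to the threshold, was at 58.9, 62.3, 84.2 and 85.05 CPM with LX-A3928, 6.27, 27.8, 17.25 and 28.7 CPM with LX-A2003, and 0.179 to 2.23 CPM with PBS. Its 3 groups did not overlap, but the log2 fold change of 1.86 ± 0.449 did not pass (adjusted p = 0.0891). Other members with an unadjusted p under 0.05 that missed the adjusted threshold were Per1 at 1.81, Per2 at 0.98, Nr1d2 at 0.51, Cry2 at 0.35, Hlf at 0.60, Wee1 at 0.74, Nfil3 at -1.14, Lonrf3 at -0.99 and Pdk4 at -0.80 on the log2 scale. Nr1d1 (REV-ERB alpha) did not pass, at -0.08. The hour of tissue collection in each group was not given, and its part in these differences was not tested.

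**Figure D3:**
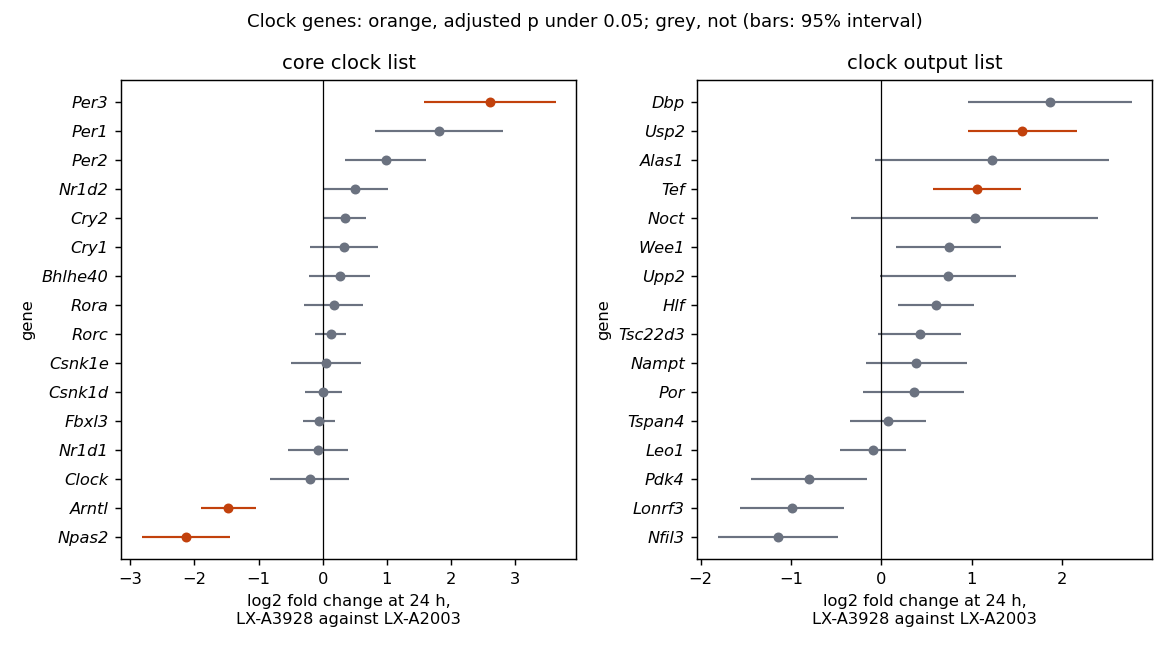
Log2 fold change of LX-A3928 against LX-A2003 at 24 h with its 95% interval for the 16 core clock genes (left) and the 16 clock output genes (right), ordered by value. Orange marks an adjusted p under 0.05: Per3, Arntl and Npas2 on the left, and Usp2 and Tef on the right.

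Nr0b2 had the most negative log2 fold change of the 19 genes. It encodes SHP, a nuclear receptor without a DNA-binding domain that represses bile acid synthesis. Nr0b2 was at 12.4, 15.9, 14.6 and 20.2 CPM with LX-A3928, 90.6, 90.2, 49.3 and 72.8 CPM with LX-A2003, and 131.1 to 146.9 CPM with PBS. No group overlapped another, and the log2 fold change was -2.26 ± 0.370 (adjusted p = 0.000895), a level 4.79 times lower. The call held without any 1 of the 8 libraries. Of the 18 genes tested for bile acid synthesis and transport, Nr0b2 alone passed, 2 (11.1%) had an unadjusted p under 0.05, and the median was -0.00742. Cyp7a1, the rate-limiting enzyme of bile acid synthesis, varied from 23.0 to 55.9 CPM with LX-A3928 and from 15.4 to 107.9 CPM with LX-A2003, and these ranges overlapped.

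Angptl8, a secreted protein induced by feeding, was at 19.8, 45.7, 35.0 and 42.2 CPM with LX-A3928. It was at 146.7, 128.1, 99.8 and 86.3 CPM with LX-A2003 and at 131.5 to 193.2 CPM with PBS. The highest LX-A3928 library was below the lowest LX-A2003 library, and the log2 fold change was -1.69 ± 0.290 (adjusted p = 0.0016). The call held without any 1 library but not when the 8 libraries were fitted alone (adjusted p = 0.0771).

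Igfbp1, which binds insulin-like growth factors and is repressed by insulin, was at 11.1, 8.31, 6.04 and 9.02 CPM with LX-A3928 and at 33.9, 9.96, 21.5 and 39.9 CPM with LX-A2003. PBS livers held 14.6 to 40.3 CPM. LX-A2003 replicate 2 fell within the LX-A3928 range, which made Igfbp1 the 1 gene of the 19 whose libraries overlapped. For comparison, 702 of all genes (5.54%) had libraries that did not overlap. Its log2 fold change was -1.61 ± 0.362 (adjusted p = 0.0483), and the call held only in the fit without LX-A2003 replicate 2, with an adjusted p up to 0.29 without another library and of 0.263 in the 8 libraries alone. In the list of 20 genes under insulin and fasting control, Igfbp1 alone passed, 6 (30.0%) had an unadjusted p under 0.05, and the median was -0.0615. Foxq1, a forkhead factor, was at 45.4, 49.4, 48.0 and 49.5 CPM with LX-A3928, 11.6, 9.05, 14.5 and 24.8 CPM with LX-A2003, and 2.16 to 5.03 CPM with PBS. Its groups were separate, but its log2 fold change of 1.68 ± 0.426 did not pass (adjusted p = 0.139).

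Chka encodes choline kinase alpha, the first enzyme of phosphatidylcholine synthesis from choline. It was at 34.8, 35.3, 27.1 and 30.6 CPM with LX-A3928, 89.5, 69.4, 78.6 and 73.2 CPM with LX-A2003, and 70.8 to 142.2 CPM with PBS. LX-A2003 and PBS overlapped, and LX-A3928 lay below both. Chka had a log2 fold change of -1.28 ± 0.251 (adjusted p = 0.00948), and the call was lost without LX-A3928 replicate 3 or 4 or LX-A2003 replicate 1 (adjusted p up to 0.0907).

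A receptor and its ligand were lower together. Epha2, an ephrin receptor tyrosine kinase, was at 16.6, 20.1, 19.7 and 18.5 CPM with LX-A3928, 69.5, 33.3, 46.1 and 56.6 CPM with LX-A2003, and 34.7 to 45.3 CPM with PBS. The LX-A2003 libraries spanned the PBS range on both sides, whereas all LX-A3928 libraries were below it. Epha2 had a log2 fold change of -1.46 ± 0.240 (adjusted p = 0.000895), and the call held without any 1 library. Efna1, which encodes the membrane-bound ligand ephrin-A1, was at 9.88, 9.48, 10.5 and 11.0 CPM with LX-A3928, 20.8, 18.5, 32.0 and 29.3 CPM with LX-A2003, and 23.0 to 29.0 CPM with PBS. LX-A3928 libraries were again lowest and closely grouped, with a log2 fold change of -1.30 ± 0.284 (adjusted p = 0.0335). The Efna1 call held only in the fit without LX-A2003 replicate 2, and the adjusted p without another library reached 0.203.

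Hes1, a transcriptional repressor known as a Notch target, was at 13.1, 16.5, 14.3 and 15.9 CPM with LX-A3928. With LX-A2003 it was at 51.5, 46.8, 22.2 and 22.4 CPM, and with PBS at 32.1 to 44.8 CPM. The LX-A2003 libraries formed a high pair and a low pair, yet all 4 were above every LX-A3928 library. Hes1 had a log2 fold change of -1.26 ± 0.242 (adjusted p = 0.0092), and the call was lost without LX-A3928 replicate 3 or LX-A2003 replicate 1 (adjusted p up to 0.14) and in the 8 libraries alone (0.191).

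The growth regulators Myc and Plk3 were higher with LX-A3928. Myc, a transcription factor that drives ribosome production and growth, was at 22.9, 19.4, 19.7 and 10.2 CPM with LX-A3928, 3.68, 4.47, 3.34 and 4.34 CPM with LX-A2003, and 1.65 to 2.67 CPM with PBS. All 3 groups were separate, and the log2 fold change was 2.19 ± 0.433 (adjusted p = 0.0113). The Myc call was lost without LX-A3928 replicate 3 or LX-A2003 replicate 1 or 3 (adjusted p up to 0.0751). Plk3, a polo-like kinase induced by stress, was at 35.2, 56.3, 69.0 and 38.6 CPM with LX-A3928, 15.7, 28.6, 15.3 and 17.3 CPM with LX-A2003, and 9.13 to 11.8 CPM with PBS. These groups were separate too. The log2 fold change was 1.37 ± 0.299 (adjusted p = 0.0335), and the call held only without LX-A3928 replicate 1 or 4 or LX-A2003 replicate 2, reaching an adjusted p of 0.259 without another library and 0.117 in the 8 libraries alone.

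Of the 22 immediate early and AP-1 genes, Myc alone passed. In that list 7 (31.8%) had an unadjusted p under 0.05 and the median was 0.00463. Egr1 at -1.40, Nr4a1 at -1.47 and Dusp1 at -0.66 on the log2 scale were among the lower members and did not pass. Of the 23 growth arrest and p53 target genes, Plk3 alone passed, 5 (21.7%) had an unadjusted p under 0.05, and the median was -0.0916.

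Of the remaining 4 genes, 2 were higher and 2 lower. Coq10b, a mitochondrial protein that binds coenzyme Q, was at 40.7, 49.8, 55.1 and 62.7 CPM with LX-A3928, 18.7, 32.2, 17.1 and 19.9 CPM with LX-A2003, and 19.0 to 44.0 CPM with PBS. PBS livers overlapped both groups, which did not overlap each other. Its log2 fold change was 1.25 ± 0.264 (adjusted p = 0.025), and the call held only without LX-A3928 replicate 1 or LX-A2003 replicate 2 (adjusted p up to 0.174 without another library).

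Sox5, a SoxD transcription factor, was at 17.4, 23.7, 26.5 and 24.4 CPM with LX-A3928, 9.36, 15.5, 7.13 and 8.56 CPM with LX-A2003, and 17.9 to 29.2 CPM with PBS. Here LX-A3928 livers lay within or just under the PBS range and LX-A2003 livers lay below it. The log2 fold change was 1.18 ± 0.270, with an adjusted p of 0.0486 just inside the threshold, and the call held only without LX-A3928 replicate 1 or LX-A2003 replicate 2 (adjusted p up to 0.351 without another library). Sox5 spans 953.6 kb (chr6:143828425-144781977, minus strand, GENCODE on GRCm38), against a median of 24.3 kb over the 12141 tested genes with a match.

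Rnf125, an E3 ubiquitin ligase that acts on the RNA sensor RIG-I, was at 281.7, 189.7, 205.2 and 227.4 CPM with LX-A3928, 440.3, 360.3, 514.1 and 445.7 CPM with LX-A2003, and 237.6 to 388.1 CPM with PBS. PBS lay between the compounds and overlapped both. Rnf125 had a log2 fold change of -0.96 ± 0.210 (adjusted p = 0.0335), and the call held only without LX-A3928 replicate 1 or LX-A2003 replicate 2 (adjusted p up to 0.205 without another library). Zfp750, a zinc finger factor known from epidermal differentiation, was at 13.4, 15.4, 15.6 and 16.7 CPM with LX-A3928, 24.3, 31.7, 21.9 and 29.0 CPM with LX-A2003, and 20.3 to 23.4 CPM with PBS. Only the LX-A3928 libraries were clear of PBS. The log2 fold change was -0.81 ± 0.178 (adjusted p = 0.0338), and the call held only without LX-A2003 replicate 3 (adjusted p up to 0.177 without another library).

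**Figure D4:**
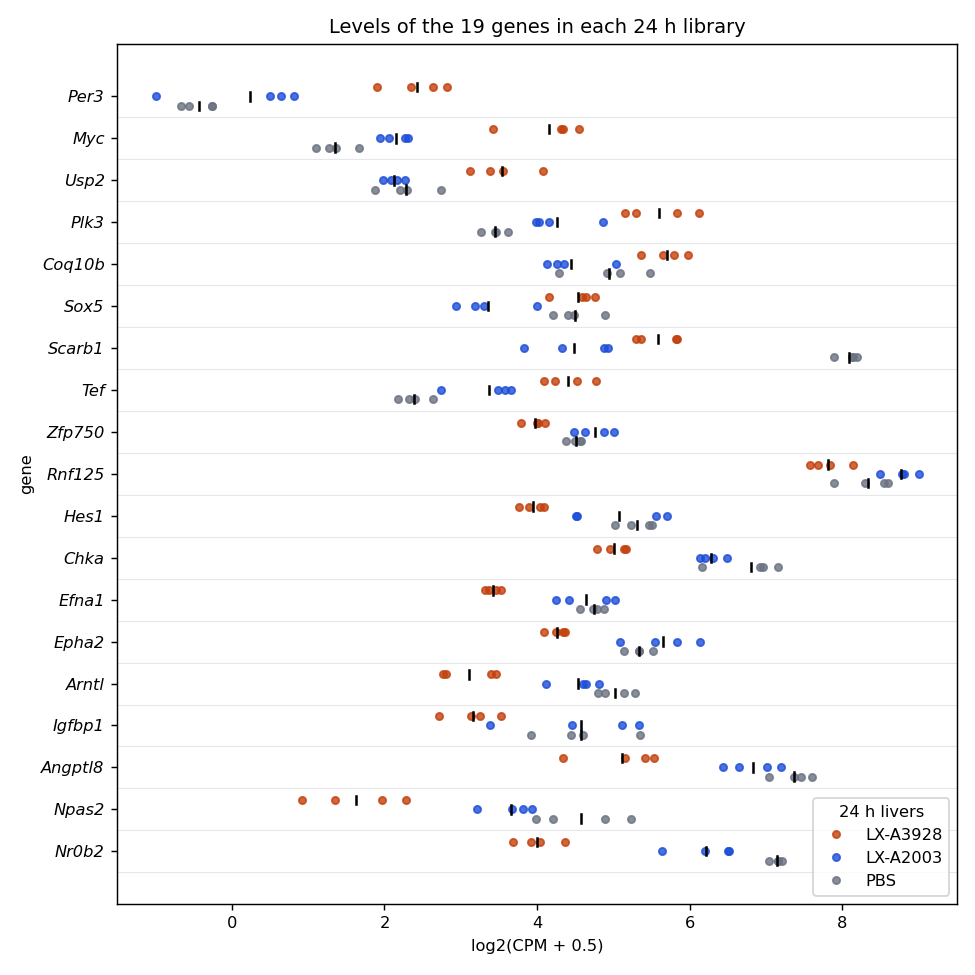
Level of each of the 19 genes on the log2(CPM + 0.5) scale (horizontal axis) in the 4 libraries of each 24 h group, with a bar at the mean of the log values and genes ordered by fold change. In 18 of the 19 genes the LX-A3928 and LX-A2003 points do not overlap; the exception is Igfbp1.

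Set beside PBS, most of the 19 genes differed from the vehicle by the test with LX-A3928 and few did with LX-A2003. Over all genes, 413 (3.26%) differed between LX-A3928 and PBS and 265 (2.09%) between LX-A2003 and PBS. Of the 19, 15 differed from PBS with LX-A3928 and 3 with LX-A2003. The 13 that passed against PBS with LX-A3928 alone were Per3, Myc, Usp2, Plk3, Hes1, Chka, Efna1, Epha2, Arntl, Igfbp1, Angptl8, Npas2 and Nr0b2. Scarb1 and Tef passed with both compounds, Sox5 passed with LX-A2003 alone, and Coq10b, Zfp750 and Rnf125 passed with neither. The LX-A3928 mean lay farther from the PBS mean in 17 genes, and the LX-A2003 mean in Scarb1 and Sox5. Both comparisons used the same PBS libraries. Their LX-A3928 and LX-A2003 libraries were also those by which the 19 genes were chosen. These counts are therefore not independent of that choice.

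The sizes against PBS varied by gene. Npas2 had a log2 fold change against PBS of -3.15 ± 0.341 with LX-A3928 (adjusted p = 1.35e-08) and -1.02 ± 0.305 with LX-A2003 (adjusted p = 0.0653). For Nr0b2 these values were -3.15 ± 0.380 (adjusted p = 2.53e-07) and -0.89 ± 0.348 (adjusted p = 0.221). Per3 stood 4.30 ± 0.622 above PBS with LX-A3928 (adjusted p = 7.41e-06) and 1.69 ± 0.741 with LX-A2003 (adjusted p = 0.309). These Per3 values rest on levels close to 0, with PBS at 0.127 to 0.338 CPM and 1 LX-A2003 library at 0. In Npas2, Nr0b2 and Per3 the 2 compounds had the same sign against PBS. Epha2 had opposite signs, at -1.09 ± 0.240 with LX-A3928 (adjusted p = 0.00406) and 0.37 ± 0.234 with LX-A2003 (adjusted p = 0.584), where only the first value passed.

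At the later times, the 5 clock genes passed again at 72 h and did not pass at 168 h. At 72 h, 91 genes (0.718%) differed between the compounds, and 8 of the 19 were among them with the same sign: Per3, Usp2, Coq10b, Sox5, Tef, Chka, Arntl and Npas2. These 8 are 42.1% of the genes called at 24 h and 8.79% of those called at 72 h. At 168 h, 1026 genes (8.1%) differed, of which Igfbp1 was the only 1 of the 19. Arntl was at 2.68, 2.54, 3.05 and 6.63 CPM with LX-A3928 at 72 h and at 19.5, 14.5, 23.1 and 16.7 CPM with LX-A2003, a log2 fold change of -2.32 ± 0.229 (adjusted p = 4.25e-09). By 168 h it was at 11.6 to 17.1 CPM with LX-A3928 and 14.3 to 18.7 CPM with LX-A2003, and these ranges overlapped. Usp2 had a log2 fold change of 2.48 ± 0.300 at 72 h (adjusted p = 5.87e-07) and -0.57 ± 0.275 at 168 h (adjusted p = 0.21).

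The change of the difference over time was tested as an interaction. Between 24 h and 72 h, 2 genes passed (0.0158%), with 440 at an unadjusted p under 0.05. Nr0b2 was 1 of them, at 2.66 ± 0.512 (adjusted p = 0.0377). At 72 h Nr0b2 was at 42.4, 7.86, 30.5 and 32.5 CPM with LX-A3928 and 33.0, 19.8, 23.4 and 10.6 CPM with LX-A2003, so the groups overlapped, and both lay below the PBS range of 91.2 to 133.9 CPM. The other was Gadd45g, a growth arrest gene outside the 19 and named after its values were seen. Gadd45g was at 105.6, 117.8, 107.7 and 26.8 CPM with LX-A3928 at 24 h against 11.2, 14.7, 29.8 and 38.5 CPM with LX-A2003. By 72 h it was at 14.5, 16.3, 3.99 and 5.28 CPM against 48.9, 68.8, 23.6 and 42.1 CPM. The groups overlapped at 24 h, where the log2 fold change of 1.93 did not pass (adjusted p = 0.254), and were separate at 72 h, where the value of -2.18 passed (adjusted p = 0.0364). Its interaction was -4.11 (adjusted p = 0.0287). Leaving out 1 library moved the count between 0 and 16, the latter without LX-A3928 replicate 2 at 72 h, and DESeq2 called 10.

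Between 24 h and 168 h, 82 genes passed the interaction (0.647%), of which 9 were among the 19: Myc, Usp2, Plk3, Coq10b, Scarb1, Rnf125, Arntl, Angptl8 and Npas2. Over all 82 genes the split was 45 higher and 37 lower. With library totals as the scaling, 68 genes passed, 26 higher and 42 lower, and 62 of these were among the 82. In all 19 genes the interaction value had the sign opposite to the 24 h difference. The choice of genes by their 24 h difference favours that direction. For Igfbp1, at 0.11, the sign changed under 5 alternatives. The count was 325 without LX-A3928 replicate 2 at 168 h, 266 without replicate 4 of that group, and between 45 and 53 without any of 7 other libraries. Igfbp1 had a difference of the same sign at both ends of the course. At 168 h it was at 144.0, 230.2, 191.2 and 256.4 CPM with LX-A3928 and 660.0, 572.5, 513.2 and 567.2 CPM with LX-A2003, separate groups far above the PBS range of 25.2 to 32.0 CPM, with a log2 fold change of -1.49 ± 0.336 (adjusted p = 0.00426). Scarb1 no longer differed by the test at 72 h (0.52 ± 0.244, adjusted p = 0.539) or 168 h (-0.41 ± 0.227, adjusted p = 0.282), when its means were 7.83 and 9.32 CPM with LX-A3928 and 5.58 and 12.5 CPM with LX-A2003.

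**Figure D5:**
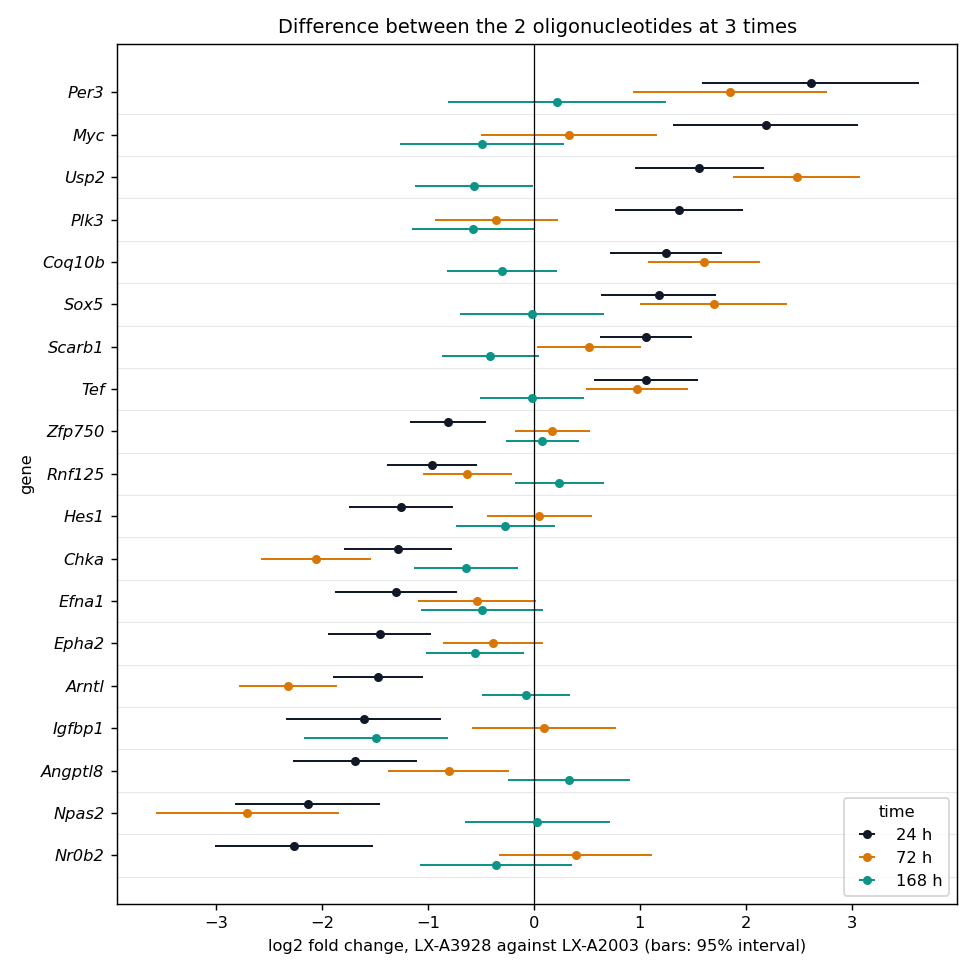
Log2 fold change of LX-A3928 against LX-A2003 with its 95% interval for the 19 genes at 24 h, 72 h and 168 h, ordered by the 24 h value. Usp2, Coq10b, Sox5, Chka, Arntl and Npas2 are farther from 0 at 72 h than at 24 h, and at 168 h most intervals reach 0.

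Of the 47 gene lists, 8 held at least 1 of the 19 genes and 39 held none, by edgeR, and DESeq2 added 1 gene, Sdc2, in a list without an edgeR call (log2 fold change 0.65, adjusted p = 0.0393, named after its value was seen). Among the lists without a call by edgeR, the largest shares at an unadjusted p under 0.05 were 4 of 10 (40%) long genes that fell in earlier results of these data, 3 of 8 (37.5%) genes entrained by temperature and feeding, and 5 of 15 (33.3%) glucocorticoid targets, with medians of -0.032, 0.117 and -0.175. Over all genes tested, 4.4% had an unadjusted p under 0.05 and the median was -0.00342. In the integrated stress response list, 16 of 19 genes had a lower value with LX-A3928 than with LX-A2003. In that list 5 (26.3%) had an unadjusted p under 0.05, none passed by either tool, and the median was -0.194. Against PBS the list's median was 0.199 with LX-A3928 and 0.399 with LX-A2003. Gdf15, a secreted stress cytokine in that list, was at 5.14, 5.28, 3.74 and 7.22 CPM with LX-A3928 and 14.6, 9.76, 19.0 and 15.1 CPM with LX-A2003, groups that did not overlap, with a log2 fold change of -1.45 ± 0.417 (adjusted p = 0.308). Fgf21, a fasting and stress hormone, had an LX-A2003 library at 60.0 CPM, while the other 3 were at 7.49 to 13.5 CPM and the LX-A3928 libraries at 3.44 to 6.38 CPM. The ER chaperone list leaned the other way: 17 of 20 genes had a higher value with LX-A3928, 4 (20.0%) had an unadjusted p under 0.05, none passed by either tool, and the median was 0.199. Against PBS its median was -0.134 with LX-A3928 and -0.227 with LX-A2003. Sterol synthesis genes had a lower value in 13 of 17, with 4 (23.5%) at an unadjusted p under 0.05, none that passed by either tool and a median of -0.16. Their median against PBS was 0.0454 with LX-A3928 and 0.261 with LX-A2003. The lists of NRF2 targets (17 genes), inflammatory cytokines and NF-kB targets (14), the growth hormone axis (14), lysosome (22) and RNase H, RNA decay and oligonucleotide uptake (23) held 0 genes that passed by either tool and 0 at an unadjusted p under 0.05. Their medians were 0.0275, 0.019, -0.0163, -0.0254 and -0.0371. The summed level of the lysosome list did not overlap between the compounds (5905 to 6056 CPM with LX-A3928, 6143 to 6374 CPM with LX-A2003). Both lay above PBS, at 5457 to 5666 CPM. Of the 31 pathway lists the sums were separate between the compounds in 3. With LX-A3928, 1 was higher than with LX-A2003 (clock output) and 2 were lower (lysosome and integrated stress response). For single genes tested the share without overlap was 5.54%, and a sum over a list is another measure. The integrated stress response sums, over 20 genes, were 1447 to 1556 CPM with LX-A3928, 1610 to 1810 CPM with LX-A2003 and 1296 to 1559 CPM with PBS.

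The markers of other cell types were measured as a check on the make-up of the tissue. Of 119 marker genes in 16 lists, 0 passed by edgeR or DESeq2 and 6 (5.04%) had an unadjusted p under 0.05, against 4.4% of all genes. The 16 sinusoidal endothelial markers held 0 at an unadjusted p under 0.05, with a median of -0.031. Neutrophil markers had lower values with LX-A3928 in 7 of 7 genes tested, with a median of -0.79. Over all 13 neutrophil markers measured, tested or not, the summed levels were 5.17 to 8.51 CPM with LX-A3928 against 8.85 to 12.4 CPM with LX-A2003. The neutrophil sums of the 2 compounds did not overlap, and 1 of the 7 genes, S100a8, had an unadjusted p under 0.05. With PBS the sums were 4.96 to 7.45 CPM, a range that LX-A3928 overlapped and LX-A2003 exceeded. The median log2 fold change against PBS was -0.0846 with LX-A3928 and 0.789 with LX-A2003. Of the 16 marker lists, 3 had sums that did not overlap between the compounds, hepatocyte, neutrophil and NK cell. All 3 were lower with LX-A3928 than with LX-A2003, and in all 3 the LX-A3928 sums overlapped PBS. Of single genes tested, 5.54% did not overlap between the compounds, a share that sums over a list need not follow. Of the 13 neutrophil markers in the table, Ly6g and Mpo were at 0 with LX-A3928 and Mpo and Elane at 0 with LX-A2003. The 10 NK cell markers measured, 6 of them tested, summed to 4.66 to 5.53 CPM with LX-A3928 against 6.00 to 9.56 CPM with LX-A2003, also without overlap. PBS livers, at 4.625 to 8.574 CPM, overlapped both. Klrb1c and Klrd1 were at 0 with both compounds and Prf1 at 0 with LX-A3928. The part of these cells in the 19 differences was not tested.

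Genes just outside the threshold had values close to those just inside. G0s2, an inhibitor of adipose triglyceride lipase, had a log2 fold change of -1.82 ± 0.426, Slc2a2, the hepatocyte glucose transporter GLUT2, 0.67 ± 0.158, N4bp2l1 0.82 ± 0.196 and Hhex, a homeobox factor of liver development, 0.99 ± 0.235, each with an adjusted p of 0.0688. DESeq2 called these 4 genes, with adjusted p from 0.0121 for Slc2a2 to 0.016 for Hhex. At the present depth, 9712 genes (76.6%) had a 95% interval within a log2 fold change of -1 to 1. For the 7368 genes at 10 CPM or more, the interval reached a median of 0.369 to either side of the estimate, and 0.556 at the 90th percentile.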

How the data were processed

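Liver RNA was made into libraries with a mouse AmpliSeq kit, which reads a designed amplicon of each gene, per the labels' protocols. The authors deposited 1 table of unscaled read counts, whole numbers for each gene. For the aligner, genome build, strand and filters, nothing is stated (not given in the sources used here). Genes were kept with filterByExpr over 12 groups (at least 99.891% of each library's counts), scaled with TMM, and fitted to all 48 libraries in edgeR 4.0.16 on R 4.3.3 (robust quasi-likelihood F test, 36 residual degrees of freedom, Benjamini-Hochberg adjustment over the 12672 genes tested). An adjusted p under 0.05 is called; SE is the absolute log2 fold change over the square root of F. DESeq2 1.42.0, other scalings, filters, a replicate block and leaving out libraries were alternatives. The scripts were tested on simulated data. The text names Scarb1, up to 12 called genes in each direction by fold change (a group mean of 10 CPM or more, no overlap of libraries) and up to 4 called members of each list; other genes are given with their values. The comparison and the gene lists were chosen with earlier results of these data known.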

Additional observations from a re-analysis of the deposited data

Results flagged for a closer look

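Plk3 was at 28.57 CPM in LX-A2003 replicate 2 at 24 h, while the other 3 libraries of that group lay between 15.35 and 17.34 CPM. This was the 1 sample far from its group among 57 sets of gene and group examined, and chance alone marks about 1 set in 20.

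The difference between the compounds changed with time in 10 values, by the edgeR interaction test. For Nr0b2 the difference moved up by 2.656 on the log2 scale, from -2.26 at 24 h to 0.39 at 72 h, where it did not pass. From 24 h to 168 h the difference moved down by -2.678 for Myc, -2.127 for Usp2, -1.945 for Plk3, -1.543 for Coq10b and -1.47 for Scarb1, and up by 1.2 for Rnf125, 1.4 for Arntl, 2.023 for Angptl8 and 2.167 for Npas2.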

How the results depend on the processing

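Of the 1823 values of a named gene under an alternative, 19 changed sign, none of them called in either fit and all from reported values of at most 0.139 in size. Of the 1823, 1668 stayed on their side of the threshold, 133 lost the call and 22 gained it. The 19 calls became 14 without a filter on low counts, 20 at 5 CPM in 4 libraries, 18 with DESeq2 size factors, 17 with library totals and 27 by the DESeq2 test, where 15 were higher. DESeq2 kept all 19. Calls were lost without a filter for Plk3, Coq10b, Zfp750, Efna1 and Igfbp1, with library totals for Sox5, Zfp750 and Igfbp1, and with DESeq2 size factors for Tef. The 8 libraries fitted alone gave 77 calls and kept 14 of the 19. Leaving out 1 library gave 6 to 24 calls, the fewest without LX-A2003 replicate 1. Against PBS, fitting the libraries compared alone gave 1434 calls for LX-A3928 and 754 for LX-A2003, DESeq2 gave 409 for LX-A2003, and leaving out 1 library gave 248 (without LX-A3928 replicate 1) to 332 and 135 (without PBS replicate 1) to 214. The 72 h interaction had 0 calls without a filter, 10 by DESeq2 and 0 to 16 without 1 library. The 168 h interaction had 163 calls by DESeq2, 29 in its own 16 libraries and 45 to 325 without 1 library. With library totals it had 68 calls, 26 higher and 42 lower, in place of 45 and 37. The cause of these shifts was not tested. Deviations from the group mean at 24 h were set side by side by replicate number between LX-A3928 and LX-A2003. Their correlations were 0.0178, 0.0552, -0.15 and 0.0563, and values from 2 groups cannot show whether the numbers pair samples. With a replicate block the calls were 13, without Sox5, Tef, Zfp750, Rnf125, Efna1 and Igfbp1 (adjusted p of 0.0525 to 0.0629), and 390, 237, 2 and 62 in the comparisons with PBS and the interactions. Intervals and counts cover these samples, and without molecular identifiers, PCR reads are not independent counts of RNA.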

Other observations

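The livers given the other gapmer, LX-A1656, at 24 h were contrasted with no group above, although they entered the shared estimate of the spread, and no test was made. Scarb1 was at 9.52 to 11.8 CPM there, below every LX-A3928 and LX-A2003 library. Arntl was at 29.7 to 32.7 CPM, within the PBS range, and Per3 at 0.663 to 1.14 CPM, within the LX-A2003 range. Nr0b2 was at 60.0 to 147.5 CPM and Myc at 1.93 to 5.00 CPM, both wide ranges that overlapped LX-A2003 and also PBS. Sox5 was at 2.45 to 5.17 CPM, below every library of the other compounds and of PBS.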
